A study of Gallus gallus with 9 samples.

Results

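The 200 genes most restricted to EGK.X blastoderms were taken from the 24356 chicken genes of the normalized count matrix. The rule left out the 154 genes of the study's own DNA repair, apoptosis, and pluripotency lists, so that 24202 genes were ranked. Each gene received a score on the log2 scale, which set the lowest of the 3 EGK.X blastoderm libraries against the highest of the 6 libraries of chicken embryonic fibroblasts (CEFs) and primordial germ cells (PGCs), with 1 added to both values. The 200 highest scores define the members. Since they were chosen by these measured values of all 9 libraries, their excess in EGK.X blastoderms is described here and not tested.

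The samples came from untreated White Leghorn chickens, in 3 groups of 3 biological replicates each. An EGK.X blastoderm is the whole embryo at stage X of Eyal-Giladi and Kochav, as found when the egg is laid, and each replicate pooled 10 of them. CEFs were grown from the bodies of HH stage 28 (embryonic day 6) embryos after the organs and limbs had been taken away, 5 embryos per replicate, and were cultured with serum to passage 2. PGCs were drawn from 484 to 684 gonads per replicate, dissected at HH stage 28, as the fraction that carried the surface antigen SSEA-1 on a magnetic column, so this is an enriched rather than a pure population.

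The blastoderm of a freshly laid egg is a disc of cells on the yolk, with a translucent area pellucida that holds the epiblast and islands of hypoblast, and a thicker area opaca at the rim. In birds the cleavage divisions take place in the oviduct, and the RNA stored by the oocyte gives way to transcripts of the embryo's own genome before the egg is laid. Early signaling ligands, pluripotency factors, and maternal transcripts are known classes of RNA at this stage. The deposited tables give Ensembl identifiers without gene names, and none of them could be matched in the available reference table. The members consequently have no names, functions, or sequences here, and only a few identifiers are printed.

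Total counts on genes were 60066862 to 67475925 in EGK.X blastoderms, 43511523 to 64953799 in CEFs, and 29512715 to 56255185 in PGCs. The labels were checked with named genes of the study's lists. NANOG, a core pluripotency factor, had 683, 671, and 567 normalized counts in EGK.X blastoderm replicates 1 to 3 and at most 0.0399 in a CEF library. Its PGC libraries had 140 to 150. SYCP3, a protein of the meiotic chromosome axis, had 4.68 to 5.61 normalized counts in the PGC libraries and 2.27 to 2.66 in the CEF libraries. DMC1, a homologous recombination gene, was not higher in PGCs, at 0.408 ± 0.0786 against 0.477 ± 0.171 in CEFs (SD, n = 3 each). The paper places meiotic arrest of female germ cells after the PGC stage, so levels of meiotic genes cannot decide the PGC label. NANOG, SYCP3, and DMC1 alone do not establish it. Defining markers of fibroblasts, gonadal somatic cells, and blood could not be identified by name, so the purity of the groups was not tested here. The paper reports a stain for SSEA-1 on column-bound and unbound cells of each PGC replicate, done to check that the bound cells were PGCs. In bulk libraries, fewer cells of a type and less RNA per cell cannot be told apart.

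The members took 2.81% ± 0.0978 (SD, n = 3) of the counts on genes in EGK.X blastoderms, against 0.296% ± 0.0140 (SD, n = 3) in PGCs and 0.0954% ± 0.0130 (SD, n = 3) in CEFs. The median member had 47.2, 45.2, and 49.99 normalized counts (counts scaled to a common library size adjusted by TMM factors) in EGK.X blastoderm replicates 1 to 3. The corresponding medians were 2.00, 2.01, and 1.81 in PGCs and 0.729, 0.482, and 0.738 in CEFs. Levels differed widely among the members, since their means in EGK.X blastoderms ran from 4.43 to 1797 normalized counts. A mean above 10 was reached by 177 members and above 100 by 65, and the 4 most abundant had means of 1065 to 1797. The lowest count of any member in any EGK.X blastoderm library was 270 reads, so no member rested on a few reads at this stage. This follows from the rule, since with 1 added a high score needs many reads in every EGK.X blastoderm library. A small part of the set held most of its RNA. The 10 most abundant members carried 34.5% to 37.0% of the members' counts in EGK.X blastoderms and the 50 most abundant 74.1% to 76.8%.

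**Figure D1:**
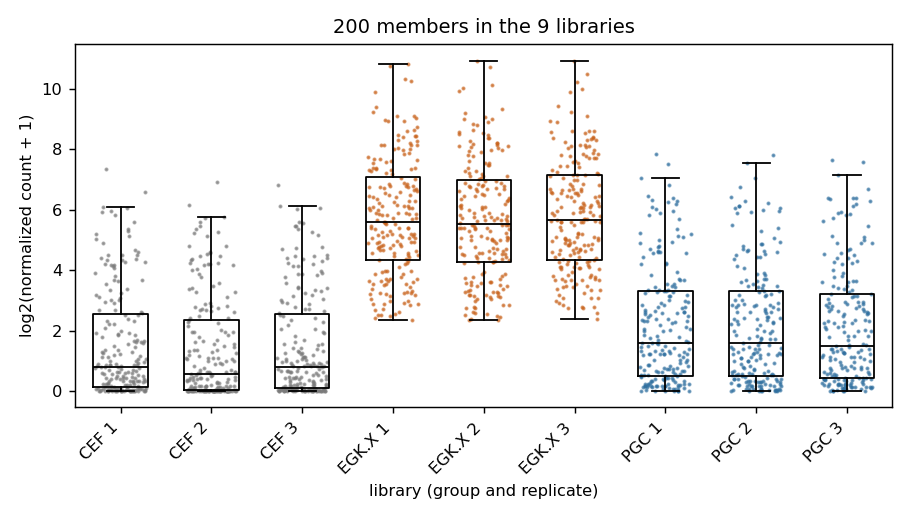
Normalized counts of the 200 members in each of the 9 libraries, as log2(normalized count + 1). Each point is a gene and each box spans the quartiles with the median as a line and whiskers to the most extreme gene within 1.5 interquartile ranges. The medians of the 3 EGK.X blastoderm libraries lie between 45.2 and 49.99 normalized counts, and those of the other libraries at 2.01 or below.

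Because the rule compares extremes, the libraries of EGK.X blastoderms do not overlap those of CEFs and PGCs for any of the 200 members. Among all genes with a count, 18.5% were separated in this direction. The highest score belonged to ENSGALG00000012593, at 6.02. This gene had 107, 98.1, and 141 normalized counts in EGK.X blastoderm replicates 1 to 3. It had 0.128, 0.243, and 0.530 normalized counts in the PGCs, and its counts in the CEFs were 1, 0, and 0 reads. The signal in CEFs was thus at or below the 3 reads per library that served as the floor, while the PGC libraries held 9, 9, and 31 reads. The next gene, ENSGALG00000027090, had a score of 5.90, with 159, 145, and 228 normalized counts in EGK.X blastoderms. Its PGC libraries were close together at 1.32, 1.32, and 1.45 normalized counts, and its CEF libraries had 0.220, 0, and 0.0952. On the ratio of means, EGK.X blastoderms exceeded the next highest group, the PGCs, 385-fold for the former gene and 130-fold for the latter.

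**Figure D2:**
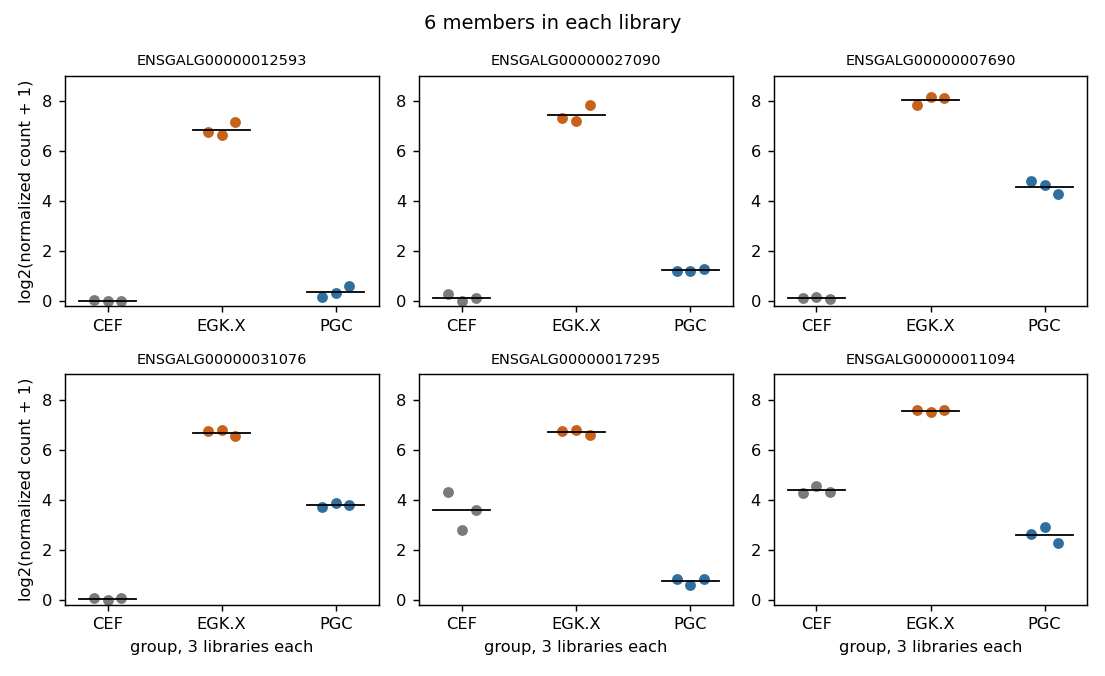
Values of 6 members in each library, as log2(normalized count + 1), with 3 points per group for replicates 1 to 3 and a line at the mean of these log2 values. The upper left and upper middle genes have the highest scores and were called higher in PGCs than CEFs. The upper right and lower left genes were also called higher, and the lower middle and lower right genes were called lower. In each panel all 3 EGK.X blastoderm libraries lie above the other 6.

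The scores fell steeply and then flattened. A score above 5 was held by 10 genes, above 4 by 25, and above 3 by 72. The last 3 members had scores of 2.06, 2.05, and 2.05, and the next 3 genes 2.04, 2.04, and 2.04, so that the edge of the set is not a gap in the data. The gene at rank 200 had 9.97 normalized counts in its lowest EGK.X blastoderm library and 1.65 in its highest other library, and the gene at rank 201 had 3.70 and 0.142. With the same score computed for the other groups, 645 genes of PGCs and 623 genes of CEFs reached the value of the last member. These counts are a description and were not tested.

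The named genes left out by the rule give the score a scale. WNT3A, a ligand of the canonical WNT pathway, was the 1 gene of the 154 that reached the members' range. Its score of 4.26 corresponds to rank 21. It had 45.6, 38.1, and 23.5 normalized counts in EGK.X blastoderm replicates 1 to 3, at most 0.0684 in a PGC library, and at most 0.279 in a CEF library. NANOG fell just short at 1.91, because its PGC libraries held 150, 146, and 140 normalized counts. BMP4, a ligand of the BMP pathway, scored 1.44, and its highest level outside EGK.X blastoderms was in a CEF library, at 13.3 normalized counts. Pou5f3, the avian counterpart of the pluripotency factor POU5F1, scored above 1 but below BMP4, with 446, 594, and 620 normalized counts in EGK.X blastoderms, whereas PGCs had 157 to 207. In all, 14 of the 154 genes had a score above 1.

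**Figure D3:**
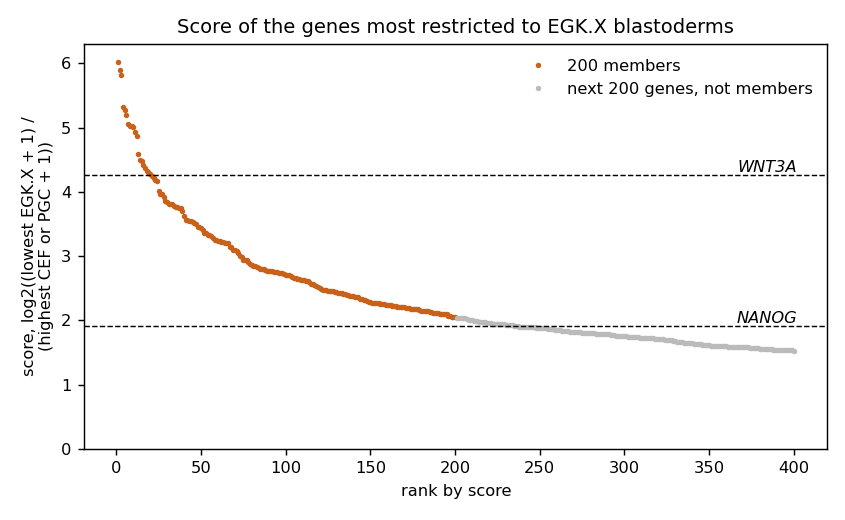
Score of the 200 members and of the next 200 genes against their rank. The score falls from 6.02 at rank 1 to 2.05 at rank 200 without a step, and dashed lines mark the scores of WNT3A (4.26) and NANOG (1.91), which the rule had left out.

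Of the gene lists drawn up for early embryos and for the cell types around them, 14 of 306 symbols could be paired with an identifier through the study's lists. The rule had left all 14 out. They were tested in the quasi-likelihood fit of edgeR, where the Benjamini-Hochberg adjustment covered every gene with a count. Calls needed an adjusted p below 0.05 together with a log2 fold change above 1 or below -1. Against CEFs, 7 of the 14 were called higher in EGK.X blastoderms and 3 lower, where 23.1% and 21.6% of all genes were called. The paper had already reported these 7 as upregulated over CEFs in the same libraries. Since all 14 also come from its lists, their counts are a description and no independent test. Against PGCs, 6 were called higher and 2 lower, where 18.5% and 23.4% of all genes were called. The transcription factors NANOG, Pou5f3, SOX2, and KLF4 were all called higher than in CEFs, but only NANOG and Pou5f3 of the 4 were also called higher than in PGCs. SOX2 averaged 3.13 ± 2.44 normalized counts (SD, n = 3) at the blastoderm stage, and 3.42 ± 0.238 (SD, n = 3) in PGCs. KLF4 averaged 7.13 ± 1.28 at the blastoderm stage, against 4.12 ± 0.492 in PGCs (SD, n = 3 each). WNT3A and FZD7, which codes for a WNT receptor, were called higher than in both other groups, with log2 fold changes for FZD7 of 1.79 (standard error 0.22) against CEFs and 1.57 against PGCs. Among the BMP and activin genes, BMP4 was higher than in both groups, whereas INHBA, the activin subunit gene, had 241 ± 36.6 normalized counts (SD, n = 3) in CEFs and 0.0193 ± 0.0168 (SD, n = 3) in EGK.X blastoderms. FGF2, a fibroblast growth factor, and the receptor gene FGFR1 were called lower than in CEFs.

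Outside the blastoderm, the mean in PGCs was a median of 4.71% of the mean in EGK.X blastoderms (quartiles 1.74% and 10.5%), and the mean in CEFs a median of 1.51% (quartiles 0.275% and 5.64%). The mean in PGCs was under 1% of the blastoderm mean for 30 members, the mean in CEFs for 79, and both for 20. By absolute level, 77 members had a mean above 1 normalized count in PGCs and CEFs alike, and 68 had a mean below 1 in both. A mean above 1 in PGCs together with a mean below 1 in CEFs was found for 48 members, and the reverse for 7. The highest of the 6 other libraries was a PGC library for 140 members and a CEF library for 60. Neither this split nor that of 48 and 7 members was set against the same split over all genes. Genes in general were also higher in PGCs by these values. The median of all genes with a count was 3.23 to 3.36 normalized counts in PGC libraries and 1.68 to 1.90 in CEF libraries.

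The members closest to complete restriction were few. No more than 3 reads in each of the 6 CEF and PGC libraries were found for 6 members, of which 2 had no read in any of them. The 2 genes without a read, at ranks 97 and 115, were lowly expressed in the blastoderm as well, with 8.65 ± 4.13 and 7.40 ± 3.69 normalized counts (SD, n = 3). The member at rank 8 had 2150, 2393, and 3196 reads in EGK.X blastoderm replicates 1 to 3, against a single read over the CEFs and a single read over the PGCs. Its level in EGK.X blastoderms was at least 502-fold higher, with 3 reads per library as the floor for the other groups. The member at rank 12 likewise had 2375, 2102, and 5262 reads and was at least 634-fold higher. For these 6 genes, expression in CEFs and PGCs was not detectable at this depth, and the floor covers counting error only. A further 32 members were at the floor in CEFs but not in PGCs, and 1 was at the floor in PGCs but not in CEFs. These counts were not set against all genes. The 3 reads amounted to 0.0599 to 0.0932 normalized counts in CEF libraries and 0.0427 to 0.0809 in PGC libraries. A gene could thus reach the floor at a somewhat higher level in CEFs. The 32 genes had means of 0.0393 to 12.8 normalized counts in PGCs with a median of 0.291, and 8 of them exceeded 1.

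The members' remaining signal can be set side by side in PGCs and CEFs. The rule did not compare these groups with each other, but it capped the highest of their 6 libraries, so the same values helped to choose the members. The calls between PGCs and CEFs are therefore given as a description, without p-values, and their shares are not a test against other genes. In the edgeR fit over all 9 libraries, 91 members (45.5%) were called higher in PGCs than in CEFs and 17 (8.5%) lower. Among the 22698 genes tested, 23.7% were called higher and 18.5% lower. The remaining 92 members were not called, and 19 of these had an adjusted p under 0.05 with a smaller change. All 3 PGC libraries lay above all 3 CEF libraries for 116 members (58%, against 34.5% of all genes), and below them for 24 (12%, against 30.5%).

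The median log2 fold change of the members was 1.03, against 0.05 for all genes. With genes at the floor of a group set to their bound, it was 0.94, against 0 for all genes. Scaling by library size alone, without TMM factors, raised the median of all genes by 0.68 and gave 126 members higher and 12 lower, with all 91 and 12 of the 17 calls kept. Among all genes tested, 5387 were called higher and 4193 lower with TMM factors, and 7899 and 2616 without. Of all genes called, 56.2% were higher with TMM factors and 75.1% without, whereas the share for the members was 84.3% and 91.3%. Without EGK.X blastoderm replicate 3, 92 members were called higher and 17 lower.

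**Figure D4:**
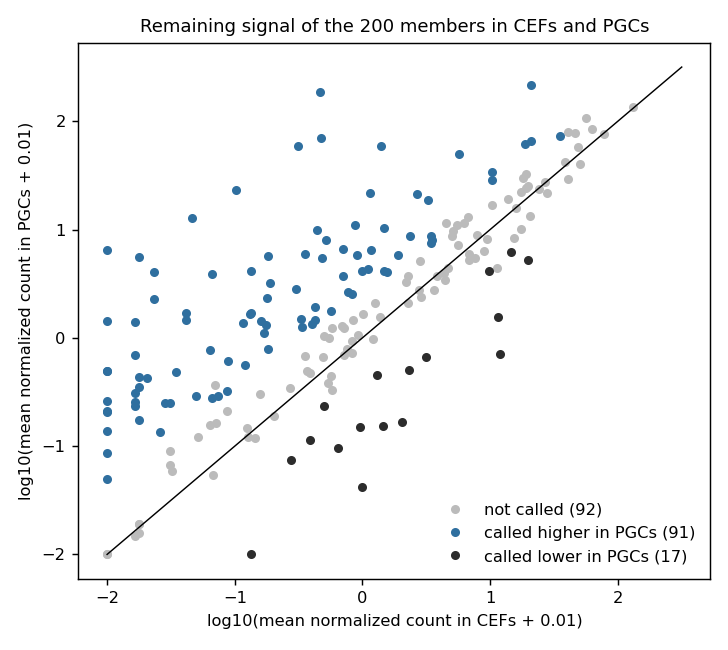
Mean normalized count of the 200 members in CEFs (x axis) and PGCs (y axis), each as log10(mean + 0.01), with a line of equal levels. The 91 members called higher in PGCs lie above the line and reach from the floor of CEFs to 216 normalized counts in PGCs, and the 17 called lower lie below it.

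The members called higher differed in how much they kept in PGCs. Their median level was 2.31 normalized counts in PGCs and 0.168 in CEFs, beside 51.1 in EGK.X blastoderms. A mean above 10 normalized counts in PGCs was found for 18 of them and a mean below 1 for 28. At least 10 reads in every PGC library were counted for 76 of the 91. In CEFs, 29 of the 91 were at the floor, and the other 62 had log2 fold changes of 1.05 to 8.58 with a median of 2.67. The calls were spread over the whole range of scores, with 29, 18, 26, and 18 of them in consecutive blocks of 50 genes from the highest score down.

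The smallest adjusted p of the members called higher belonged to ENSGALG00000007690. It had 227, 280, and 275 normalized counts in EGK.X blastoderm replicates 1 to 3, 26.5, 24.1, and 18.6 in the PGCs, and 0.0799, 0.124, and 0.0714 in the CEFs, where 3 or 4 reads were counted per library. The PGC libraries lay far above the CEF libraries, and the log2 fold change was 7.98. With so few reads in the CEFs its size is uncertain. The standard error of 0.26, taken from the test statistic, understates this. ENSGALG00000031076 showed the same order at a lower level. Its libraries had 105, 108, and 92.3 normalized counts in the blastoderm and 12.1, 13.5, and 12.7 in PGCs, and its CEF libraries were at the floor with 3, 0, and 2 reads. PGCs were therefore at least 170-fold higher than CEFs. The gene with the highest level of all members, at rank 79, was also among those called. Its blastoderm libraries had 1749, 1681, and 1963 normalized counts, its PGC libraries 227, 221, and 201, and its CEF libraries 21.6, 15.1, and 25.3. The fourth most abundant member, at rank 145, had 182, 186, and 190 normalized counts in PGCs and 0.759, 0.155, and 0.452 in CEFs, and its log2 fold change of 8.58 (standard error 0.33) was the highest among members above the floor in both groups. The fifth and sixth most abundant members, at ranks 58 and 64, followed the same order. At rank 58, EGK.X blastoderms had 1222, 984, and 693 normalized counts, PGCs 71.9, 67.9, and 69.3, and CEFs 0.260, 0.342, and 0.785. At rank 64, EGK.X blastoderms had 676, 594, and 1031, PGCs 63.5, 60.5, and 52.3, and CEFs 0.499, 0, and 0.404.

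The 17 members called lower in PGCs had their remaining signal mainly in CEFs. Their median level was 0.224 normalized counts in PGCs and 1.44 in CEFs, beside 41.8 in EGK.X blastoderms. PGCs were at the floor for 1 of them, and the other 16 had log2 fold changes of -4.90 to -1.20. At least 10 reads in every CEF library were counted for 13 of the 17. The PGC and CEF libraries did not overlap for 13 of the 17, and for all 91 members called higher. ENSGALG00000017295 had 19.0, 6.00, and 10.9 normalized counts in CEF replicates 1 to 3 and 0.796, 0.513, and 0.786 in PGCs. Although its CEF libraries were spread widely, they did not overlap the PGC libraries, and the log2 fold change was -4.07 (standard error 0.37). ENSGALG00000011094 had 18.4, 22.3, and 18.6 normalized counts in CEFs and 5.25, 6.42, and 3.86 in PGCs, a log2 fold change of -1.94 (standard error 0.18). In EGK.X blastoderms the former gene had 107, 110, and 93.9 normalized counts and the latter 192, 178, and 190. The next 3 members by adjusted p had at most 2.89 normalized counts in a CEF library. The member at rank 57 had 0.699, 1.06, and 1.19 normalized counts in CEFs and 0, 0.0270, and 0.0684 in PGCs, beside 26.4, 20.3, and 25.7 in EGK.X blastoderms.

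Other abundant members were not called between the other groups. The second most abundant member, at rank 49, had 86.0, 84.6, and 82.9 normalized counts in PGCs and 66.8, 53.6, and 66.3 in CEFs. These libraries did not overlap, but the change was small, at 0.44 on the log2 scale (standard error 0.22). The third, at rank 84, had 132, 130, and 140 in PGCs and 160, 120, and 111 in CEFs, with overlapping libraries and a log2 fold change of 0.04 (standard error 0.15). The members at ranks 192 and 173 passed the adjusted p but not the threshold on size, with log2 fold changes of 0.92 and 0.96. At ranks 49 and 84 the means in PGCs and CEFs, of 62.3 to 134 normalized counts, were above the median member's mean of 48.9 in EGK.X blastoderms.

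The members varied among the EGK.X blastoderm replicates. The ratio of the highest to the lowest EGK.X blastoderm library had a median of 1.52 for the members. It was 1.34 for the 9352 other genes with at least 270 reads in every EGK.X blastoderm library. The ratio was above 2 for 54 members, with a highest value of 4.30. The most even member, at rank 170, had 309, 311, and 315 normalized counts. Replicate 3 was the highest library for 104 members, replicate 1 for 55, and replicate 2 for 41. The other genes had the same order, with replicate 3 highest for 44.2%, replicate 1 for 29.8%, and replicate 2 for 26.0%. The lowest library was replicate 2 for 86 members, replicate 3 for 73, and replicate 1 for 41. Replicate 3 exceeded both other replicates by more than 1.5 times for 47 members (23.5%, against 10.8% of the other genes), and fell below both by more than 1.5 times for 33 (16.5%, against 10.0%). The member with the highest ratio, at rank 83, had 7.76, 8.13, and 33.4 normalized counts in replicates 1 to 3. In the opposite direction, the member at rank 95 had 39.8, 41.5, and 9.99, the abundant gene at rank 49 had 1814, 1958, and 952, and the gene at rank 47 had 597, 637, and 207. Of the 7 named genes called higher than in CEFs, NANOG, WNT3A, and FZD7 were lowest in replicate 3, and Pou5f3, SOX2, KLF4, and BMP4 were highest there. Since the rule uses the lowest blastoderm library, it scores a gene with an uneven replicate lower than its mean would. These shares describe 3 pools. The classes at 1.5 times were drawn for replicate 3 alone, so they do not show that it differs more than replicates 1 and 2. What lies behind the differences between replicates was not tested.

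**Figure D5:**
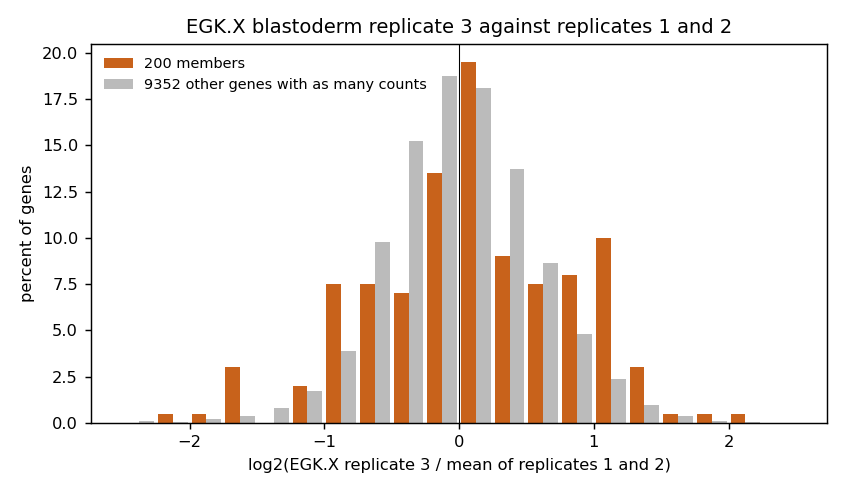
Log2 ratio of EGK.X blastoderm replicate 3 to the mean of replicates 1 and 2, as the percent of the 200 members and of 9352 other genes, in steps of 0.25. The other genes had at least 270 reads in every EGK.X blastoderm library and were not matched to the members by level. The members have more genes far from 0 on both sides, with 23.5% more than 1.5 times above both other replicates and 16.5% more than 1.5 times below them.

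Calls between PGCs and CEFs occurred in each class of replicate 3. Of the 47 members high in replicate 3, 20 (42.6%) were called higher in PGCs than CEFs and 3 lower. Of the 33 members low in replicate 3, 12 (36.4%) were called higher and 4 lower. Of the other 120 members, which need not be even between replicates, 59 (49.2%) were called higher and 10 lower. Among all genes tested, 23.7% were called higher and 18.5% lower. These shares are a description and were not tested. Without EGK.X blastoderm replicate 3, 163 of the 200 members remained among the 200 highest scores, and leaving out any other library kept 188 to 197.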

How the data were processed

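Total RNA was made into stranded libraries after ribosomal RNA depletion and sequenced in pairs. Per the paper and the labels, reads were trimmed (Trimmomatic 0.39), mapped to GRCg6a (HISAT2 2.2.0), and assigned to Ensembl genes by HTSeq. The strand setting and overlap mode are not given in the sources used here, so values of overlapping and antisense genes are uncertain. The authors deposited raw counts for each library and 1 matrix of normalized signal, counts scaled to library sizes adjusted by TMM factors, which recomputation matched within 3.25e-06%. Members and lists were chosen with earlier results of these data known.

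The fit used edgeR 4.0.16 in R 4.3.3 on the counts of 22698 genes with any read, with TMM factors, a prior count of 0.125, all 9 libraries, and no replicate block. The likelihood ratio test, named in the paper, served as an alternative. Adjusted p-values followed Benjamini-Hochberg over all genes. Standard errors are log2 fold changes divided by the root of F. The 5 summary entries of HTSeq were left out. Among them, the entry for reads that matched no counted feature held 26.6% to 36.2% of all records in a library, summary entries included. A group was at the floor when no library exceeded 3 counts.

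On counts simulated for 22413 genes, with 200 changed between PGCs and CEFs by a log2 fold change of 2, the quasi-likelihood test recovered 171 and called 3 others. The changed genes were drawn only from those above a minimum expected count, so this recovery does not cover members near the floor. All other genes were simulated without a difference between groups, and with a spread set by their level alone. The 3 other calls therefore do not give the error rate in the data. Members were described where they stood first by score, level, adjusted p in either direction, or replicate ratio, or at the edge of the set. Since names are lacking, 6 identifiers are printed, and other members are given by rank. Alternatives were DESeq2 1.42.0, limma 3.58.1 on log2 normalized values, other scalings and count filters, the CEF and PGC libraries alone, a replicate block, other rules of choice, and each library left out.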

Additional observations from a re-analysis of the deposited data

How the results depend on the processing

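The counts of members called between PGCs and CEFs stayed within 1.5 times of 91 higher and 17 lower under 19 of 20 alternatives each. The exception was limma on the log2 normalized values, with 54 higher and 7 lower, of which 53 and 7 were also called by edgeR. The limma calls over all genes are not given here, so whether the drop is particular to the members was not tested. That fit added 1 to each normalized count before taking log2. The 28 members called higher by edgeR with a PGC mean under 1 therefore could not pass its threshold on size. What set the other calls apart was not tested. The count filters among them could not remove a member, since each had at least 270 reads in every EGK.X blastoderm library. Leaving out each library gave 87 to 96 higher and 13 to 17 lower. Members chosen by group means, an alternative added after the data were seen, gave 87 higher and 21 lower. Same-numbered replicates of different groups had deviations correlated between -0.15 and 0.21, a range like that of different numbers. No pairing by number was seen, but these correlations cannot show whether replicates shared embryos or preparation. With a replicate block, 92 members were called higher and 16 lower.

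The set itself depended most on the pseudocount. With 10 added in place of 1, 128 of the 200 members were kept, and with 0.1 added 136, whereas leaving out each library kept 163 to 197. Members at the floor in CEFs and PGCs numbered 2 with no read allowed, 17 with up to 10 reads, 10 with a normalized count under 0.1, and 6 to 9 when each library was left out. Depth limits the low end. For the 39 members with fewer than 10 reads in some library of both CEFs and PGCs, a difference between those groups was not well determined. Some calls rested on few reads, since 15 of the 91 members called higher had fewer than 10 reads in a PGC library.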
